A study of Mus musculus with 4 samples.

Results

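Wound repair in the inflamed colon was read from 10 genes: the EGF-family ligands Areg, Ereg and Hbegf, the growth factors Pdgfb and Igf1, the matrix and matricellular proteins Spp1, Thbs1, Fn1 and Vcan, and the clot-stabilising F13a1. The genes were taken by symbol from a list, and all 10 were found among the 32285 features of the 4 count matrices. The 4 samples were single-cell libraries of CD45 bead-selected leukocytes from the colonic lamina propria. Every sample came from mice that drank 2% dextran sulfate sodium (DSS), a polymer toxic to the lining of the colon, over 7 days, with tissue taken on day 8, and 3 mice of 1 genotype were mixed per sample. The study used AhR+/+ mice and AhR-/- littermates, which lack the aryl hydrocarbon receptor in all cells. The labels name the treatment, give an age of 10 weeks (the methods give 8) and do not say which sample is which genotype, so no sample was compared with another, and cell classes were compared within samples. There was no water-treated sample. Because each library holds 3 mixed mice, the spread among libraries is that of pools, and every test across libraries rests on these 4 pools of unstated genotype.

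Tissue repair after epithelial injury draws on signals from several cell types. Ligands of the epidermal growth factor receptor are made as membrane-bound precursors, are shed by proteases such as ADAM17 and drive epithelial growth and migration. Platelet-derived and insulin-like growth factors act on stromal cells, while fibronectin, versican, thrombospondin and osteopontin form or decorate the provisional matrix, and the factor XIII A chain, a transglutaminase, cross-links fibrin and fibronectin.

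The matrices held 45229 cells, between 8493 and 13730 per sample, and 72509408 to 135516016 unique molecular identifiers (UMIs, counts of captured transcripts). After filters and removal of 3882 likely doublets, 39550 cells were kept, and 29329 of them were gated to a class from fixed marker lists that contain none of the 10 genes. Another 7826 kept cells (15.6 to 26.1% per sample) carried markers of more than 1 lineage and were set aside as mixed. Of 22 pairs of a check marker and its class, 15 were highest in their own class in every sample read, whereas Ccr2 and Tmem176b were not in any sample. Fibroblast (704 cells), epithelial (234) and endothelial (183) gates passed through the CD45 selection, and their Ptprc (CD45) level was 21 to 72 CPM (a gene's UMIs per 1000000 UMIs of that class and sample). Gates are cuts along a range: 9.33% of monocyte and macrophage cells, 3.77% of neutrophils and 5.40% of fibroblasts had exactly the 3 markers required, and 18.0% of ILC2 and 29.0% of ILC3 cells did. B cells (6223), which are not a known source of these genes, served as the reading of free RNA in each sample. Between 23 and 49 cell barcodes were shared by a pair of libraries.

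Areg (amphiregulin; chr5:91139599-91148432, + strand, GRCm38) was highest in the epithelial gate, at 829.8, 612, 689.6 and 976 CPM in samples 1 to 4. Type 2 innate lymphoid cells (ILC2), lymphocytes of barrier tissue known for amphiregulin, held 580.2, 766, 331 and 324 CPM. The ranges of these 2 classes overlapped, and the epithelial level was the higher in 3 of 4 samples. B cells held 1.21 to 10.5 CPM. Type 3 innate lymphoid cells (ILC3) held 563, 129.7, 53.0 and 373 CPM, and gamma-delta T cells 203, 31.3, 199 and 371 CPM. In both of these small gates single cells weighed heavily: 1 cell held 27.3 to 72.7% of the ILC3 UMIs of Areg per sample and 16.0 to 58.7% of those in gamma-delta T cells. Areg was seen in 69.2 to 82.9% of epithelial cells, 38.2 to 70.5% of ILC2, 24.4 to 39.6% of Foxp3-positive T cells and 0.631 to 2.93% of B cells. The epithelial cells were deep (median 24489 to 43645 UMIs per cell, against 3939 to 5186 in B cells). With each cell thinned to 1000 UMIs, the shares were 34.1 to 43.9% in epithelial cells, 19.1 to 40.4% in ILC2 and 10.0 to 19.8% in Foxp3-positive T cells.

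The sequence before the start of Areg is shown because Areg was the member of the list whose highest levels lay in epithelial and lymphoid classes. It is 250 bases of RefSeq's GRCm38.p6 annotation, chr5:91139349-91139598 on the + strand, written 5′ to 3′.
Areg promoter: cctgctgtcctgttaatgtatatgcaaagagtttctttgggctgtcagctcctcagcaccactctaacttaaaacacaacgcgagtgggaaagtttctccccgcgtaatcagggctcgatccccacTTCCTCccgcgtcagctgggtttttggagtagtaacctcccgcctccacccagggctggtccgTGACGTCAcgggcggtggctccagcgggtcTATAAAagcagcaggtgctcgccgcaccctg
Capitals mark, in order, TTCCTC (the reverse complement of the PU.1-type word GAGGAA), the cyclic AMP response element TGACGTCA (61 to 54 bases before the start) and the TATA word TATAAA (31 to 26 bases before the start). Over the 32851 promoters in that annotation, read on both strands over the same length, TGACGTCA was in 1.55%, TATAAA in 12.4% and GAGGAA in 23.3%. These are letter matches and were not tested for any factor's binding.

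**Figure D1:**
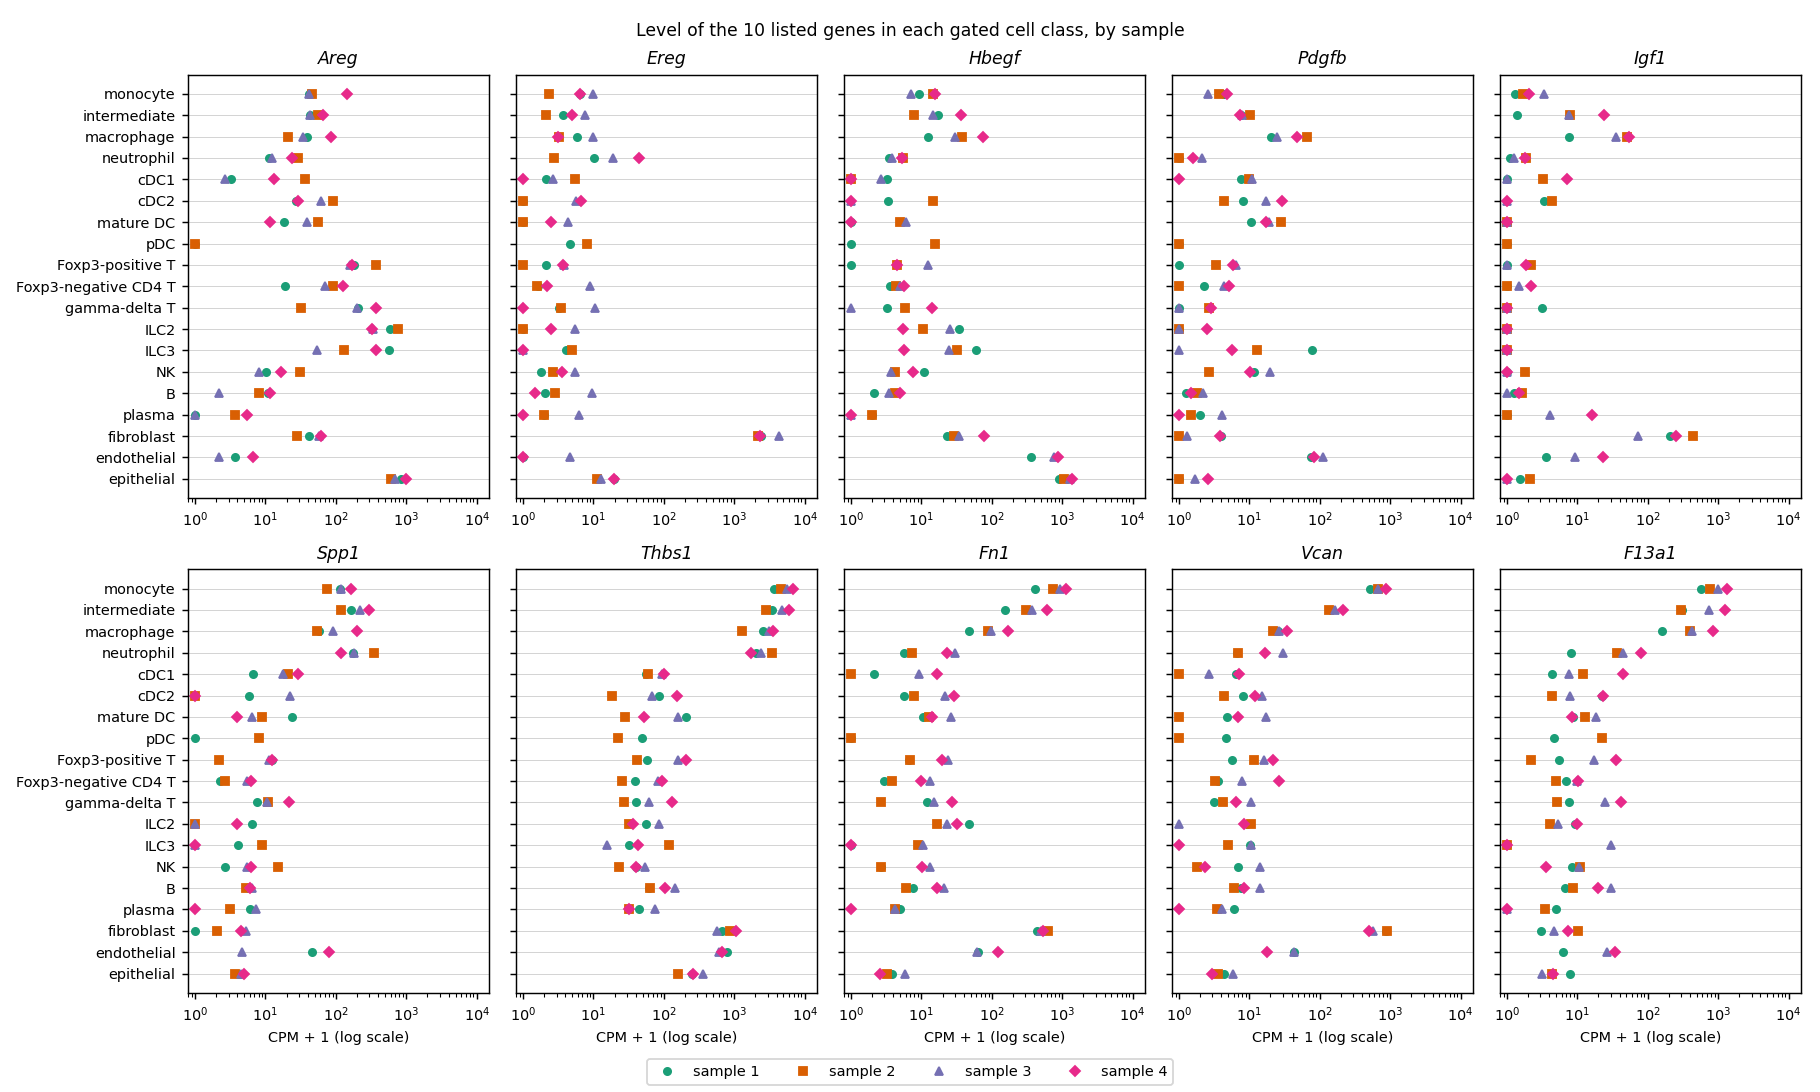
Level of each of the 10 genes (x axis, CPM + 1, log scale) in each gated cell class (rows), with 1 point per sample and a class drawn only where a sample held at least 20 of its cells. Ereg stands apart in fibroblasts (2144 to 4285 CPM) and Hbegf in epithelial and endothelial cells. Fn1 and Vcan are high in monocytes and fibroblasts, and F13a1 is high in the monocyte, intermediate and macrophage gates.

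Areg was higher in Foxp3-positive T cells, gated as regulatory T cells, than in Foxp3-negative CD4 T cells in 4 of 4 samples. The former gate required a Foxp3 UMI and no Cd8a or Cd8b1 UMI. It set no rule on Cd4, whereas the Foxp3-negative gate required a Cd4 UMI, so the gates were not matched on Cd4. The Foxp3-positive gate (566 cells) held 178, 366, 157 and 170.4 CPM and the Foxp3-negative gate (869 cells) 18.2, 89.8, 69.9 and 125 CPM, so the 2 ranges did not overlap. The log2 difference was 1.48 ± 0.29 (SE, n = 4 samples) with an adjusted p of 0.00359 by edgeR's quasi-likelihood test with Benjamini-Hochberg adjustment. In sample 1, 86 of the 155 Foxp3-positive UMIs came from 1 cell, and the level without it was 80.3 CPM. With the cell that held most UMIs of a gene left out of each gate and sample, the log2 difference of Areg was 1.79 ± 0.15 (adjusted p = 7.62e-06). Thbs1 and Fn1 also passed the test in this comparison (log2 differences 0.83 ± 0.13 and 0.98 ± 0.28, adjusted p = 0.000962 and 0.0249). Their levels in Foxp3-positive cells were not clearly above those of B cells: Thbs1 was 0.643 to 2.04 times and Fn1 0.879 to 1.19 times the B cell level, so neither was read as expression. Vcan (0.52) and F13a1 (0.88) did not pass (adjusted p = 0.341 and 0.125). Of 5 members tested, 3 passed, and 21.9% of all 9105 genes tested passed. The median log2 difference was 0.88 over the 5 members and 0.01 over all genes. Without the replicate block (sample as a term) 0 of the 5 passed, and the adjusted p of Areg was at most 0.0596 over all alternatives. The summed stress list was 1218 to 1986 CPM in Foxp3-positive and 1523 to 2492 CPM in Foxp3-negative cells, and its part in the result was not tested.

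The Areg difference between ILC2 and ILC3 rested on how genes and cells were filtered. ILC2 held the higher level in 3 of 4 samples, 0.870 to 6.25 times the ILC3 level. The log2 difference was 1.10 ± 0.44, with an adjusted p of 0.113 in edgeR's quasi-likelihood test. Without the top cell of each gate and sample the log2 difference was 1.75 ± 0.49 (adjusted p = 0.0294), an alternative chosen after seeing the data. With no filter on low counts it was 1.21 ± 0.22 (adjusted p = 1.07e-06). That run had 47830 degrees of freedom against 11.05 in the main run, because 1 spread was shared by all genes. Its SE and p therefore do not measure the spread of Areg among the 4 pools. Over all alternatives the adjusted p ran up to 0.3995. Thbs1, the other member tested, had a log2 difference of 0.14 ± 0.52, so 0 of 2 members passed by edgeR and 0 by DESeq2, 1 of them at an unadjusted p under 0.05, against 19.5% of all 4665 genes. Against Foxp3-positive T cells, ILC2 held 1.90 to 3.25 times as much Areg per UMI, higher in 4 of 4 samples. The summed stress list was 5616 to 8034 CPM in ILC2, 3337 to 4489 in ILC3 and 1218 to 1986 in Foxp3-positive T cells, with no overlap, and its part in these differences was not tested.

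Ereg (epiregulin; chr5:91074622-91093646, + strand), which lies near Areg on the same chromosome, was a fibroblast transcript in these libraries. Fibroblasts held 2365, 2144, 4285 and 2294 CPM in samples 1 to 4. No other class reached 50 CPM: the epithelial gate held 10.2 to 18.7 CPM, neutrophils 1.80 to 43.3, monocytes 1.38 to 8.97 and B cells 0.4997 to 8.50. The fibroblast range stood above every other class in every sample, and the highest B cell reading was in sample 3, the sample with the highest fibroblast level and the most fibroblasts (368). An Ereg UMI was seen in 66.7 to 91.8% of fibroblasts against 0.244 to 4.10% of B cells. Thinned to 1000 UMIs the fibroblast share was 55.2 to 83.3% (median depth 6986 to 12027 UMIs per fibroblast). Against macrophages the log2 difference was 9.24 ± 0.29 (n = 4, adjusted p = 4.58e-09), and the fibroblast level was 485 to 1086 times the macrophage level. Fibroblasts were 704 of 39550 kept cells and held 70.0 to 89.2% of all Ereg UMIs. The UMIs were spread over cells, with 2.76 to 11.8% of them in the top cell of a sample.

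Within the fibroblast gate, Ereg and Igf1 had opposite orders between clusters of cells in the 2 samples that could be read. Clustering that left the 10 genes out split most of the gate into a cluster of 555 cells led by Adamdec1, Zfp536 and Gm47071 and a cluster of 103 cells led by Prrx1, Gdf10 and Wt1, both named after their values were seen. Samples 2 and 4 held at least 20 cells of each. Ereg was 3812 and 3470 CPM in the larger cluster of these samples and 477 and 974 CPM in the smaller. Igf1 was 155 and 176 CPM in the larger cluster against 852 and 439.8 in the smaller. Thbs1 was also lower in the larger cluster, at 266 and 511 CPM against 1510 and 1714 CPM. Fn1 (746 and 589.8 against 587 and 563 CPM) and Vcan (983 and 565 against 974 and 506 CPM) differed little. The cluster values are a description from 2 samples, with no test. Over single cells of the whole gate, Spearman's rho of Ereg with Igf1 was 0.456, -0.176, -0.066 and 0.105 in samples 1 to 4. That of Ereg with Thbs1 was -0.051, -0.192, 0.053 and -0.186. Neither had the same sign in every sample.

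Neutrophils held a small amount of Ereg, 9.23, 1.80, 18.2 and 43.3 CPM, above monocytes in 4 of 4 samples and above B cells in 3 of 4. The log2 difference from monocytes was 2.07 ± 0.33 (adjusted p = 0.000225), on 4 to 372 UMIs per sample. It fell to 0.71 and lost its call when Leiden clusters replaced the gates. Clusters 6, 7 and 16, of neutrophil majority among gated cells, held 1317, 453 and 688 mixed cells. Gated neutrophils in these clusters numbered 127, 153 and 89. The part of mixed cells in the lost call was not tested. The summed fibroblast marker list was 6.72 to 18.1 CPM in neutrophils and 5.76 to 15.9 CPM in monocytes.

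Hbegf (heparin-binding EGF-like growth factor, on chromosome 18) was an epithelial and endothelial transcript. The epithelial gate held 894, 1065, 1308 and 1375 CPM. The endothelial gate held 354, 763 and 881 CPM in samples 1, 3 and 4 (sample 2 had 17 endothelial cells and was not read). The epithelial range stood above the endothelial range, and the endothelial range above every leukocyte class. Macrophages held 11.6, 36.7, 29.4 and 74.8 CPM and monocytes 8.29, 13.8, 6.21 and 14.5 CPM, against 1.13 to 3.997 in B cells. The endothelial level was 11.8 to 30.7 times the macrophage level. Hbegf was seen in 75.6 to 91.2% of epithelial cells, or 48.8 to 69.8% once thinned. The 234 epithelial cells held 44.1 to 51.0% of all Hbegf UMIs. Among myeloid cells Hbegf was higher in macrophages than in monocytes in 4 of 4 samples (log2 difference 1.54 ± 0.27, adjusted p = 0.0017).

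Pdgfb (PDGF-B chain, which binds PDGF receptors of mural cells and fibroblasts; chr15:79995874-80014977, − strand) was a low transcript, highest by median level in endothelial cells and then macrophages. Endothelial cells held 74.0, 111 and 81.4 CPM in samples 1, 3 and 4. Macrophages held 19.5, 65.6, 23.8 and 46.5 CPM, and monocytes 3.41, 2.77, 1.64 and 3.84 CPM. The ranges of these 3 classes did not overlap, and B cells held 0.268 to 1.21 CPM. Mature dendritic cells held 9.58 to 27.5 CPM and type 2 conventional dendritic cells 3.43 to 27.9 CPM, both overlapping the macrophage range. Within samples, macrophages held 1.33 to 2.83 times the mature dendritic cell level. Within the macrophage gate, Mrc1-positive cells held 34.1, 92.0, 34.1 and 54.0 CPM. The macrophage-minus-monocyte log2 difference was 3.32 ± 0.25 (adjusted p = 1.87e-05). Because macrophages were far more numerous than endothelial cells, the whole monocyte and macrophage lineage held 35.8 to 63.9% of the Pdgfb UMIs. That lineage counts monocytes, intermediate cells, macrophages and 515 cells placed in none of them. A value of 77.4 CPM in the ILC3 of sample 1 rested on 1 cell with 19 of 25 UMIs.

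Igf1 (insulin-like growth factor 1; chr10:87858265-87937042, + strand) was highest in fibroblasts, at 209.5, 441, 72.8 and 249 CPM. Macrophages held 6.72, 50.2, 35.0 and 52.6 CPM, and monocytes 0.3099, 0.692, 2.33 and 1.07 CPM. Neither the fibroblast and macrophage ranges nor the macrophage and monocyte ranges overlapped, and B cells held at most 0.665 CPM. The macrophage-minus-monocyte log2 difference was 4.45 ± 0.28 (adjusted p = 7.69e-06), the largest increase among the 10 genes, and the ratio was 15 to 72.5 in single samples. Mrc1-positive macrophages held 15.9, 71.4, 53.9 and 70.3 CPM, and Igf1 was seen in 7.78 to 24.0% of them. Fibroblasts held 35.9 to 73.1% and the whole monocyte and macrophage lineage 13.4 to 48.5% of the Igf1 UMIs. Against macrophages the fibroblast log2 difference was 2.62 ± 0.47 (adjusted p = 0.000677).

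The RefSeq promoter of Igf1 begins at a different transcript start from the gene model above, at chr10:87860861-87861110 on the + strand of GRCm38.p6. It is set beside those of Vcan (chr13:89742513-89742762, − strand) and F13a1 (chr13:37050245-37050494, − strand) because Igf1 rose from monocyte to macrophage while the other 2 fell.
Igf1 promoter: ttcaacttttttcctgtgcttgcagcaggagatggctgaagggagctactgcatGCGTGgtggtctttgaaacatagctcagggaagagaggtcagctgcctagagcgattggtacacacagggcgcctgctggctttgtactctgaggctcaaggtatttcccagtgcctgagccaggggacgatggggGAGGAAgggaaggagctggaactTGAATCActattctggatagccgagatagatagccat
Vcan promoter: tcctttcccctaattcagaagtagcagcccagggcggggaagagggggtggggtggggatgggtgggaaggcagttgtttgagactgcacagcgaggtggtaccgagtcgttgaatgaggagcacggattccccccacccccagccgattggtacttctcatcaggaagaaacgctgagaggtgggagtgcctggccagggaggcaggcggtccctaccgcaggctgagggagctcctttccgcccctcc
F13a1 promoter: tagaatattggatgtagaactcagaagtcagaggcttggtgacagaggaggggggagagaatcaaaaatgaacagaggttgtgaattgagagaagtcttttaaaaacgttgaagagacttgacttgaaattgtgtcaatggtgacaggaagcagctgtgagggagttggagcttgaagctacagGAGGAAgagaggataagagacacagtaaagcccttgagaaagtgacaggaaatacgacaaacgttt
Capitals in Igf1 mark the AhR core word GCGTG (196 to 192 bases before the start), GAGGAA (60 to 55) and TGAATCA (37 to 31). The last matched TGANTCA, an AP-1 word widened to take any base at its centre, so the match does not name an AP-1 site. The 1 match in F13a1 is GAGGAA, 66 to 61 bases before the start, and none of the 8 words searched was in the Vcan window. Of all promoters of that length 28.2% held GCGTG and 6.75% held TGANTCA. The other words searched were TTGCGCAA (0.164%), the NF-kB word (1.41%) and CACGTG (6.02%). RefSeq tables held an entry for 5 of the 10 genes, and there was no entry for Ereg, Hbegf, Pdgfb, Thbs1 or Fn1. A match is a description of letters, and the missing words in Vcan say nothing of any factor there.

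Vcan (versican, a large chondroitin sulfate proteoglycan of provisional matrix; chr13:89655312-89742509, − strand) gave the steepest step within the monocyte to macrophage series. Monocytes held 521, 664, 676 and 884 CPM. Cells with markers of both states, called intermediate, held 143, 136, 166 and 213 CPM, and macrophages 25, 21.1, 25.4 and 33.6 CPM. The 3 ranges did not overlap, and macrophages held 0.0318 to 0.0480 times the monocyte level. Their level was above that of B cells (5.02 to 13.4 CPM) in every sample. Vcan was seen in 68.3 to 76.5% of monocytes and 4.85 to 13.3% of macrophages, or 31.0 to 45.8% and 1.68 to 3.35% once thinned. The log2 difference was -4.86 ± 0.12 (n = 4, adjusted p = 6.02e-08). Fibroblasts, with 875, 916, 566 and 494 CPM, overlapped the monocyte range and were the higher class in 2 of 4 samples.

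Fn1 (fibronectin, which links matrix to integrins; chr1:71585520-71653200, − strand) followed the same order at each step. It was 416, 730.5, 932 and 1125 CPM in monocytes, 154.5, 306, 376 and 607 in intermediate cells and 47.1, 88.8, 95.2 and 168 in macrophages. Adjacent ranges overlapped between samples, but within each of the 4 samples every step was downward. The log2 difference of macrophages from monocytes was -3.21 ± 0.11 (adjusted p = 3.46e-07). Fibroblasts held 438, 631, 499.7 and 526 CPM, 0.468 to 1.05 times the monocyte level.

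F13a1 (factor XIII A chain; chr13:36867178-37050244, − strand) was held mostly by the whole monocyte and macrophage lineage. That lineage, with its cells placed in none of the monocyte, intermediate and macrophage gates, carried 65.4 to 71.8% of its UMIs. Mixed and ungated cells carried most of the rest. Monocytes held 574, 779, 1008 and 1321 CPM, intermediate cells 304, 301, 733 and 1236, and macrophages 159.8, 394, 431 and 856. The macrophage level was below the monocyte level in 4 of 4 samples, at 0.278 to 0.648 times, although the ranges overlapped. The log2 difference was -1.32 ± 0.17 (adjusted p = 0.00029). Neutrophils followed far below, at 7.06 to 78.7 CPM, against 5.64 to 29.1 in B cells.

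Thbs1 (thrombospondin-1, an adhesive glycoprotein that binds CD36, CD47 and latent TGF-beta; chr2:118111876-118127133, + strand) was high in the monocyte, intermediate, macrophage and neutrophil gates. The type 1 and type 2 conventional dendritic cell gates (17.1 to 151 CPM) lay near the B cell reading, and the mature dendritic cell gate held 27.5 to 203 CPM. Thbs1 was 3690, 4617, 5686 and 6774 CPM in monocytes, 2581, 1302, 3154 and 3532 in macrophages and 2008, 3406, 2388 and 1714 in neutrophils. The neutrophil range stood above those of fibroblasts (573 to 1044 CPM) and endothelial cells (611.5 to 785 CPM). In sample 2 the neutrophil level was above that of macrophages, and in the other 3 samples below it. B cells held 61.2 to 142 CPM and 16.3 to 27.1% of them had a UMI of Thbs1, so this gene had the highest free-RNA reading of the 10. Thbs1 was seen in 95.3 to 97.1% of monocytes and 81.5 to 88.1% of neutrophils. The macrophage-minus-monocyte log2 difference was -1.18 ± 0.18 (adjusted p = 0.000948).

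Spp1 (osteopontin, a ligand of integrins and CD44; chr5:104435118-104441050, + strand) had no single main class. Intermediate cells held 163, 117, 223 and 298 CPM, neutrophils 174, 345, 179.8 and 117, monocytes 114, 73.7, 116 and 162, and macrophages 56.9, 53.7, 89.2 and 202. All 4 ranges overlapped, and all stood far above B cells (4.23 to 5.46 CPM). In sample 4, 313 of the 1147 macrophage UMIs came from 1 cell. Within samples, intermediate cells held 1.42 to 1.91 times the monocyte level, higher in 4 of 4. Neutrophil Spp1 was concentrated: the top 10% of cells held 82.3 to 89.8% of its UMIs, spread over 161 to 516 cells per sample with no single cell above 7.43%.

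**Figure D2:**
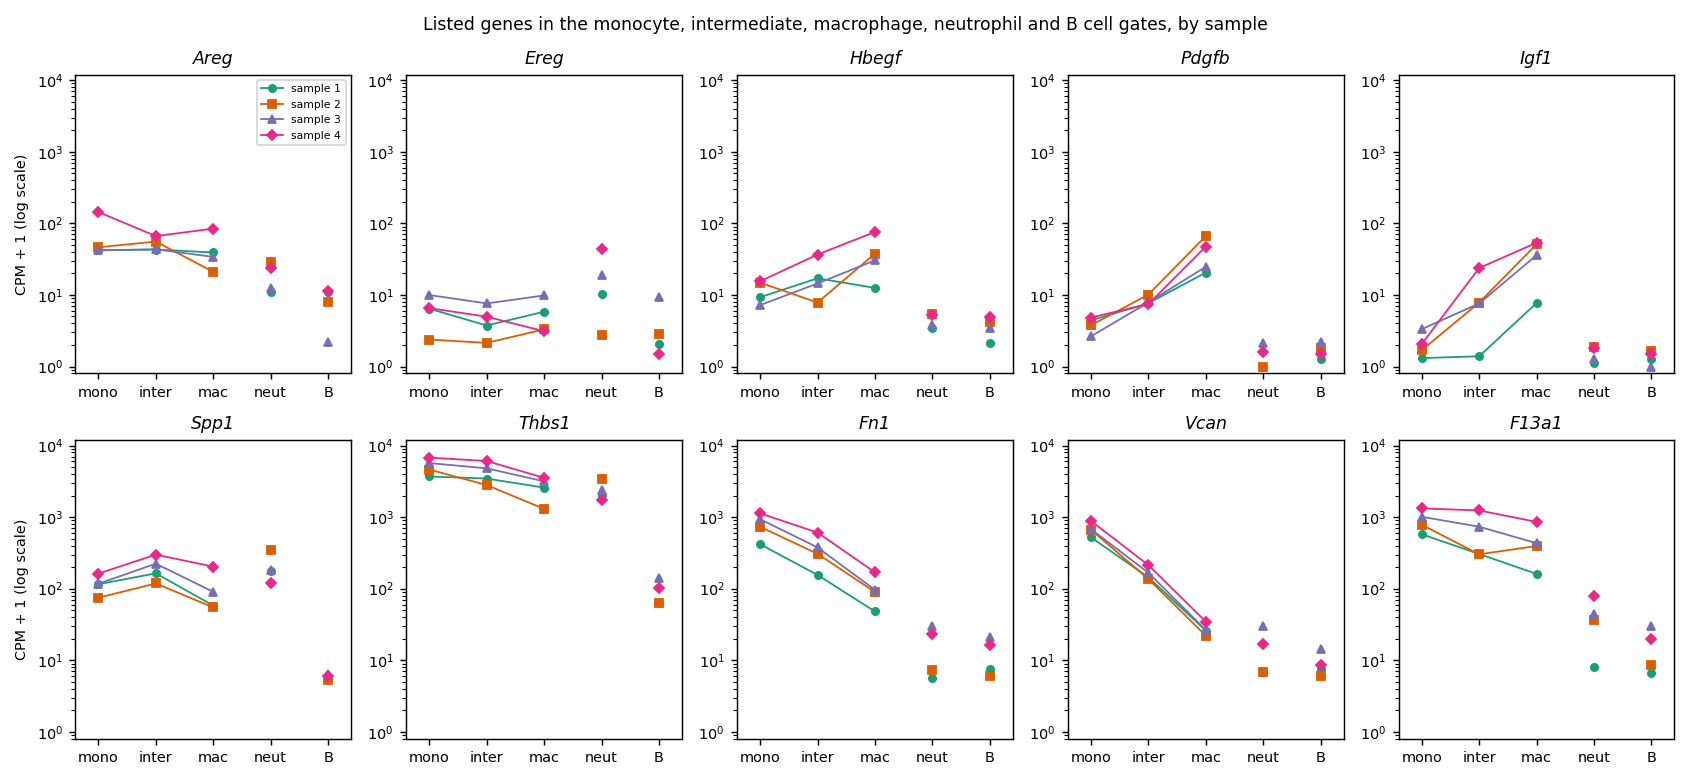
Level of the 10 genes (y axis, CPM + 1, log scale) in the monocyte (mono), intermediate (inter), macrophage (mac), neutrophil (neut) and B cell (B) gates, with 1 point per sample and lines joining the 3 monocyte-lineage gates of a sample. Vcan and Fn1 step down and Igf1 and Pdgfb step up from monocyte to macrophage in every sample, while Spp1 peaks in the intermediate gate.

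Between the macrophage and monocyte gates, members differed in both directions. Vcan, Fn1, F13a1, Thbs1, Areg and Spp1 were lower in macrophages and Igf1, Pdgfb and Hbegf higher, so 9 of 10 members passed the test, and 43.5% of all 10655 genes tested passed. The median log2 difference was -0.62 over the members and 0.02 over all genes. Ereg did not pass (-0.42 ± 0.27, adjusted p = 0.249), and its level was 0.763 to 11.1 times that of B cells in monocytes and 1.04 to 4.50 times in macrophages. Spp1 passed narrowly (-0.52 ± 0.18, adjusted p = 0.0384), was higher in macrophages in 1 of 4 samples and lost its call under 6 alternatives, among them leaving out sample 1, 2 or 3 (-0.33, -0.50 and -0.51). The sample with the higher macrophage level was sample 4, where 313 of the 1147 macrophage Spp1 UMIs came from 1 cell. Of 57 other genes of the same pathways, 11 were higher in macrophages, 15 lower, 10 did not pass and 21 were too low to test. Among them Serpinb2, an inhibitor of plasminogen activators (-3.17 ± 0.23), and F10, clotting factor X (-2.55 ± 0.36), fell most, and the PDGF ligands Pdgfc (5.07 ± 0.22) and Pdgfa (3.24 ± 0.21) rose most. Genes of a dissociation stress list also differed, 7 of them higher in macrophages, with a summed level of 2852 to 5850 CPM in macrophages and 1978 to 3567 in monocytes. Their part in the result was not tested.

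Neutrophils were compared with monocytes as the other recruited myeloid class. Fn1, Vcan and F13a1 were lower in neutrophils (log2 differences -5.22 ± 0.24, -5.13 ± 0.29 and -4.15 ± 0.29, adjusted p = 3.38e-08, 1.06e-07 and 4.24e-07). Neutrophil Fn1 was 0.713 to 1.46 times and Vcan 0.887 to 2.18 times the B cell level, not clearly above background. Spp1 was 23.5 to 81.6 times and Thbs1 16.7 to 54.7 times the B cell level, far above it. The summed monocyte and macrophage marker list was 208 to 323 CPM in neutrophils and 2505 to 2872 CPM in monocytes. Of the 9 members tested 8 passed, 2 of them higher (Ereg and Spp1) and 6 lower, against 69.9% of all 11013 genes. Igf1 was too low to test. The median log2 difference was -1.24 over the members and -0.04 over all genes. Thbs1 did not pass (-0.50 ± 0.26, adjusted p = 0.107). This comparison turned on scaling: without TMM factors the median of all genes was -0.67, Thbs1 passed (-1.14, adjusted p = 0.000847) and Spp1 did not (0.72, adjusted p = 0.0654), where with TMM factors Spp1 was 1.35 ± 0.34 (adjusted p = 0.00468). Spp1 was the lower in neutrophils of sample 4 on the CPM scale (0.726 times), and its difference was gone when Leiden clusters replaced the gates (-0.01). Clusters of neutrophil majority also held many mixed cells, whose part in this change was not tested. Of the 57 other pathway genes 11 were higher, 16 lower, 7 did not pass and 23 were not tested. Igf1r, the receptor of Igf1 (4.53 ± 0.20), and F3, tissue factor (2.53 ± 0.26), were the highest in neutrophils, and Itgb5, an integrin beta chain (-3.65 ± 0.21), and the EGF-family ligand Nrg1 (-3.52 ± 0.20) the lowest.

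Within the macrophage gate, cells with Arg1 or Mmp12 but no Mrc1 or Cd163 UMI (Arg1-positive, 142 cells) were set against the reverse (Mrc1-positive, 1346 cells). Spp1, Fn1 and Vcan were higher in Arg1-positive cells of all 4 samples and Hbegf higher in Mrc1-positive cells. The 2 gates also differed in the lists that split monocytes from macrophages: the summed monocyte list was 349 to 907 CPM in Arg1-positive and 184 to 518 CPM in Mrc1-positive cells, and the macrophage list 2987 to 5618 against 7202 to 8870 CPM. Mrc1 is in the macrophage list and also defines the 2 gates, so part of that second gap was set by the gating. The part of both lists in the result was not tested. Spp1 was 95.7, 175, 172 and 1471 CPM in Arg1-positive cells and 49.4, 27.5, 43.1 and 31.8 in Mrc1-positive cells, so the ranges did not overlap. The log2 difference was 2.93 ± 0.53 (n = 4, adjusted p = 0.00492). Single cells carried much of it: in sample 4, 313 of 381 Spp1 UMIs came from 1 of 36 cells, and the shares of the top cell in samples 1 to 3 were 74.2, 53.6 and 47.0%. Without that cell in each gate and sample, Spp1 was 25.2, 84.8, 93.0 and 276 CPM in Arg1-positive cells against 41.6, 15.9, 38.1 and 27.1, lower in sample 1 and higher in the other 3, and the log2 difference was 1.75 ± 0.43 (adjusted p = 0.0303). Fn1 was 55.6, 81.1, 295 and 178 CPM in Arg1-positive cells and 38.4, 50.7, 27.8 and 74.6 in Mrc1-positive cells (1.70 ± 0.37, adjusted p = 0.0177). Vcan was 52.5, 18.7, 43.6 and 46.3 CPM against 20.1, 9.04, 16.3 and 9.53 (1.58 ± 0.31, adjusted p = 0.00802), on 3 to 21 UMIs per sample. Areg was higher in 3 of 4 samples (1.53 ± 0.37, adjusted p = 0.0292), on 6 to 63 UMIs. Hbegf was 6.18, 0, 10.4 and 50.2 CPM in Arg1-positive cells and 13.4, 44.9, 36.5 and 87.7 in Mrc1-positive cells (-1.43 ± 0.38, adjusted p = 0.0487), and this call was lost under 8 alternatives.

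Of 9 members tested in that comparison, 5 passed (0 without the replicate block), against 4.29% of all 7458 genes, and the median log2 difference was 0.08 over the members and 0.00 over all genes. Pdgfb (-0.79), Igf1 (-0.97), F13a1 (-0.63) and Thbs1 (0.08) did not pass (adjusted p = 0.217, 0.17, 0.356 and 0.86). Without the top cell of each gate and sample, 3 members passed (Spp1, Hbegf and Pdgfb) and Areg (0.90), Fn1 (1.33) and Vcan (1.09) did not. Of the 57 other pathway genes, the clotting factors F7 (2.53 ± 0.43, adjusted p = 0.00328) and F10 (1.88 ± 0.20, adjusted p = 9.81e-05) and the matrix protein Tgfbi (0.70 ± 0.17, adjusted p = 0.0271) were higher in Arg1-positive cells, Pdgfc (-2.02 ± 0.32, adjusted p = 0.00195) was lower, 23 did not pass and 30 were not tested. The summed stress list was 1908 to 3688 CPM in Arg1-positive and 3829 to 6370 CPM in Mrc1-positive cells, with 9 of its 10 genes lower in the former. Its part in the result was not tested.

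**Figure D3:**
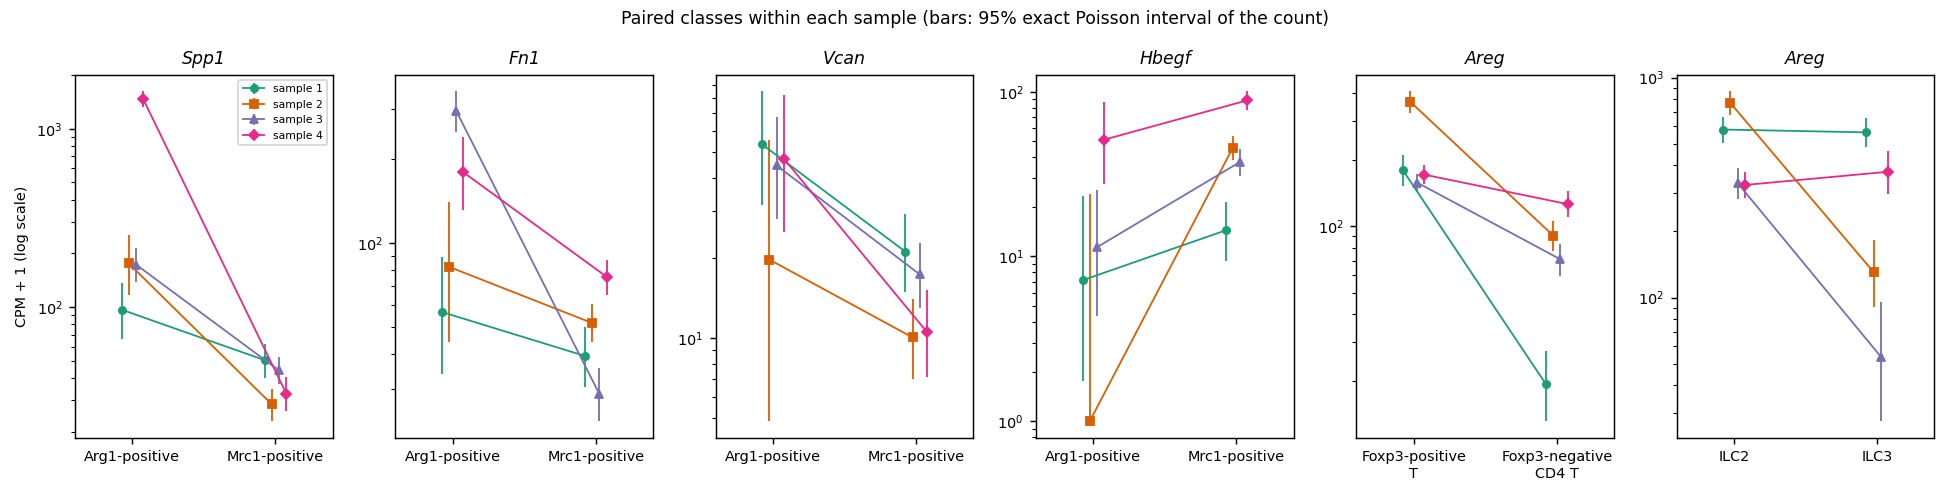
Level (y axis, CPM + 1, log scale) of Spp1, Fn1, Vcan and Hbegf in Arg1-positive and Mrc1-positive macrophages. Areg is shown in the Foxp3-positive T cell and Foxp3-negative CD4 T cell gates and the 2 innate lymphoid gates. There is 1 line per sample, and bars give the 95% exact Poisson interval of the count. Spp1 of sample 4 (1471 CPM) stands above the other 3 samples, and the Areg lines of ILC2 and ILC3 do not share 1 direction.

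Fibroblasts and macrophages divided the list between them. Ereg, Vcan, Igf1 and Fn1 were higher in fibroblasts (log2 differences 9.24, 4.603, 2.62 and 2.39), and F13a1, Spp1, Pdgfb and Thbs1 were higher in macrophages (-6.60, -5.28, -4.85 and -1.82), each with an adjusted p of 0.000677 or less. Thus 8 of 10 members passed, and 57.8% of all 11535 genes did, with a median log2 difference of 0.05 over the members and -0.02 over all genes. Areg (0.08) and Hbegf (0.03) did not pass, and the sign of each changed under several alternatives. The summed fibroblast list was 12.2 to 27.8 CPM in macrophages, and the monocyte and macrophage list 145 to 183 CPM in fibroblasts against 3698 to 4303 in macrophages. The stress list was 7689 to 10240 CPM in fibroblasts, and its part in the result was not tested. Of the 57 other pathway genes 32 were higher in fibroblasts, 16 lower, 4 did not pass and 5 were not tested. Has2, a hyaluronan synthase (9.42 ± 0.40), and Lum, the proteoglycan lumican (9.26 ± 0.43), were the highest, and F7 (-5.97 ± 0.63) and F10 (-5.30 ± 0.30) the lowest.

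**Figure D4:**
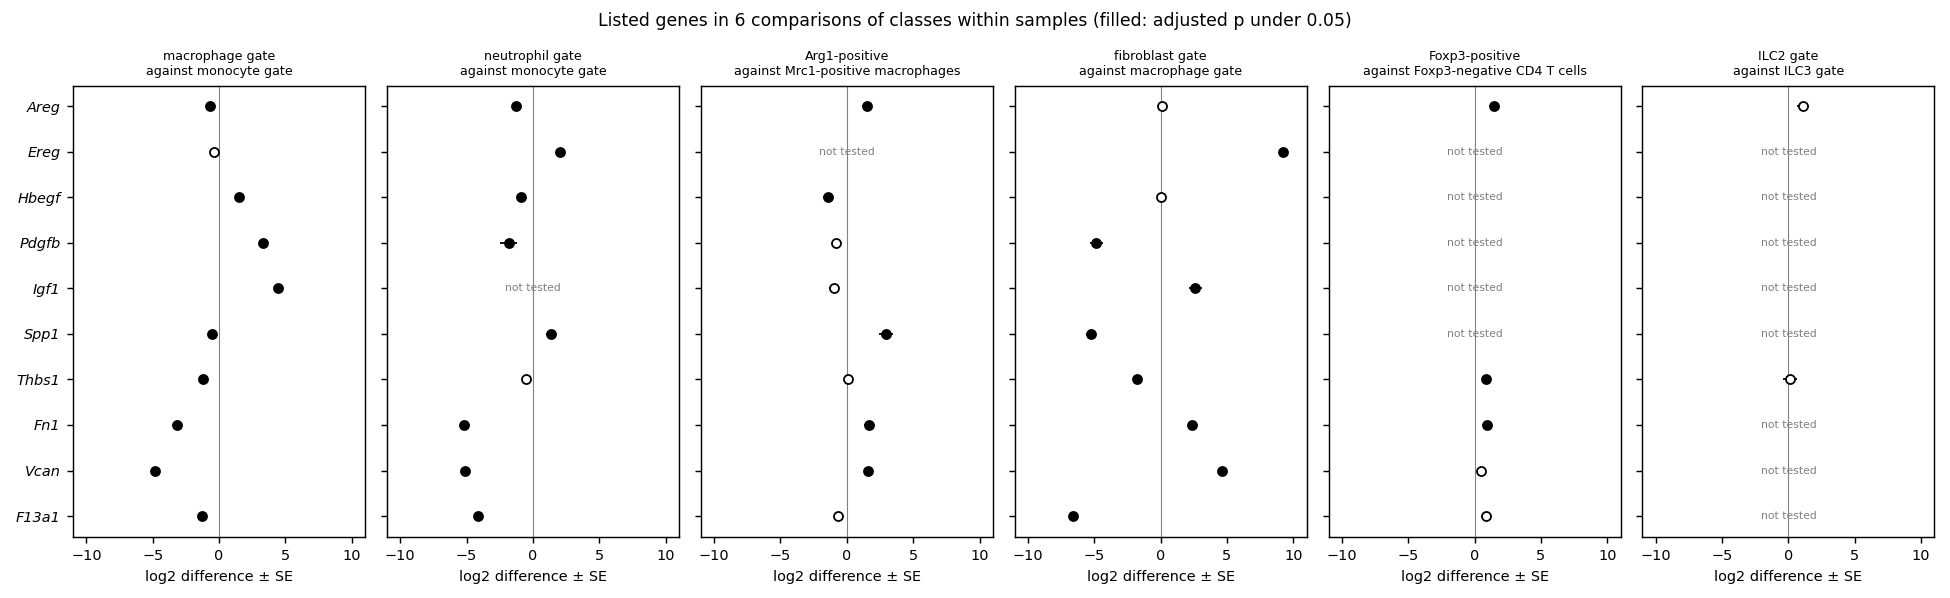
Log2 difference (x axis, ± SE, n = 4 samples) of each of the 10 genes in the 6 comparisons of classes within samples, with filled points where the adjusted p was under 0.05. Fn1 and Vcan lie left of 0 in macrophages and neutrophils against monocytes and right of 0 in fibroblasts against macrophages.

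In Foxp3-positive against Foxp3-negative cells, 2 of 57 were higher (Itgav, the integrin alpha-V chain, 1.44 ± 0.16, and Tgm2, a transglutaminase, 0.74 ± 0.24), 6 were lower, 12 did not pass and 37 were not tested. Igfbp4, an IGF-binding protein (-3.58 ± 0.53), and Rhbdf2, which helps ADAM17 reach the cell surface (-0.80 ± 0.21), were the lowest. In ILC2 against ILC3, Plaur, the urokinase receptor (1.54 ± 0.25), and Itgb3, an integrin beta chain (0.98 ± 0.22), were higher, Igf1r (-1.40 ± 0.20) and the ligand sheddase Adam17 (-0.71 ± 0.20) lower, 10 did not pass and 43 were not tested. Egfr, the receptor of Areg, Ereg and Hbegf, was highest in the epithelial gate (247 to 595 CPM). Pdgfra (147 to 337 CPM) and Pdgfrb (67.7 to 138 CPM) were highest in fibroblasts, Igf1r in neutrophils (3163 to 4183 CPM) and Cd44, a receptor of osteopontin, in monocytes (2067 to 3818 CPM).

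**Figure D5:**
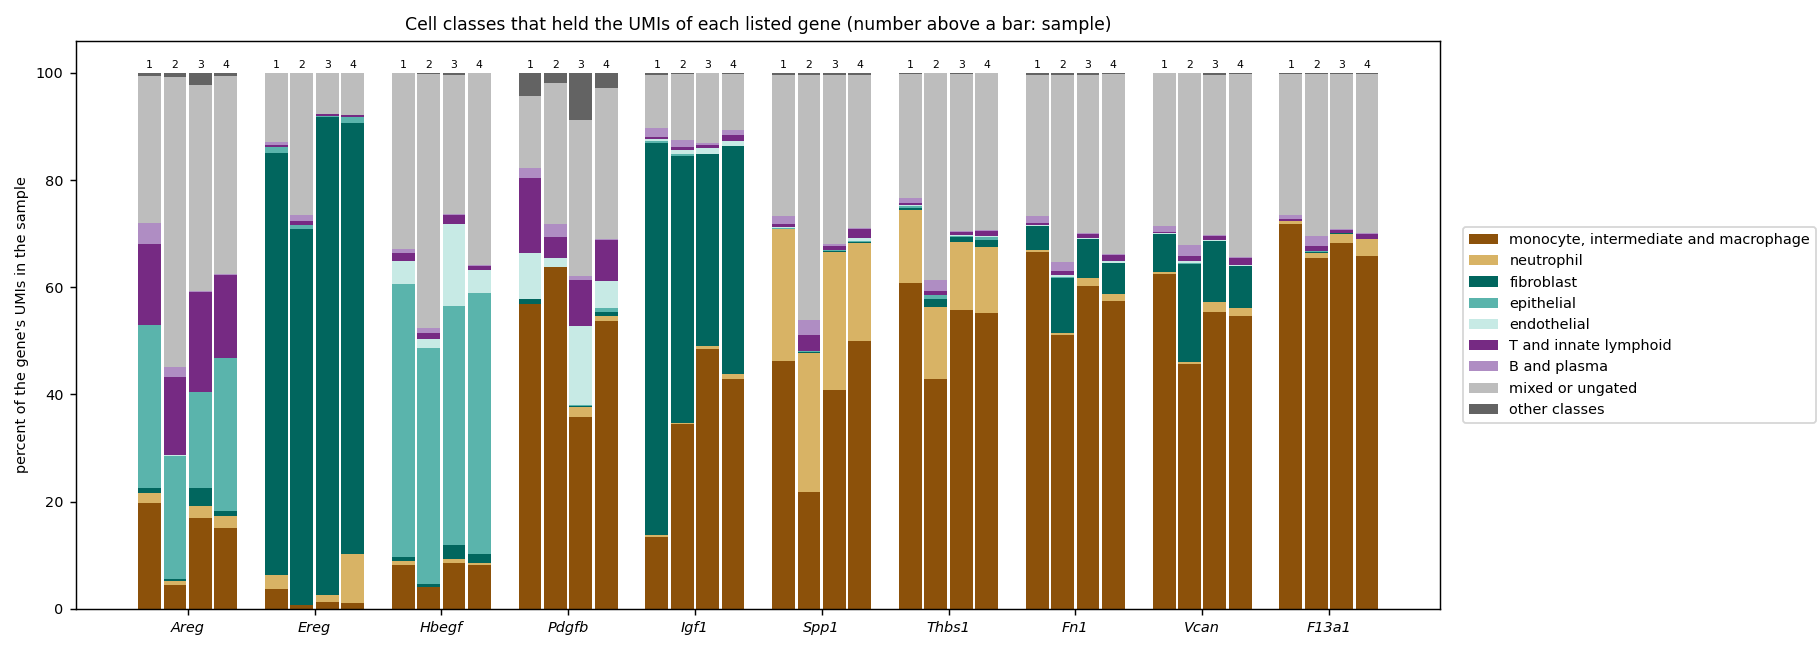
Share of each gene's UMIs (y axis, percent of the gene's UMIs among kept cells of a sample) held by groups of cell classes, with 1 stacked bar per sample. The fibroblast band holds 70.0 to 89.2% of Ereg and the epithelial band 44.1 to 51.0% of Hbegf, while mixed and ungated cells hold 27.5 to 54.1% of Areg.

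The pool of each transcript was set by class size as well as level. In this paragraph the monocyte and macrophage gates stand for the whole lineage, with intermediate cells and 515 cells placed in none of these gates. Over all kept cells the UMIs numbered 505421 for Thbs1, 69156 for F13a1, 50906 for Fn1, 42054 for Vcan, 25931 for Areg, 25428 for Ereg, 21888 for Spp1, 20771 for Hbegf, 2622 for Igf1 and 2137 for Pdgfb. For Areg, the epithelial gate held 18.1 to 30.4%, T and innate lymphoid gates 14.7 to 18.7% and the monocyte and macrophage gates 4.39 to 19.8% of the UMIs. For Spp1, monocyte and macrophage gates held 21.8 to 49.9% and neutrophils 18.4 to 26.0%. Monocyte and macrophage gates held 42.8 to 60.8% of Thbs1, 51.2 to 66.5% of Fn1 and 45.7 to 62.4% of Vcan, while fibroblasts held 4.42 to 10.4% of Fn1 and 7.08 to 18.3% of Vcan. The mixed cells were left out of every class and hold median depths of 11750 to 13790 UMIs, against 4725 to 6670 in gated cells.

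The pattern of each gene over 19 classes (Pearson's r of log2 CPM + 1, median over samples, a description over classes that share libraries) was closest to that of few others. Among the genes searched, which left out gate and check markers, Fn1 and Vcan were each other's nearest (r = 0.960). The next were Plcb1 (0.919) and Slc39a14 (0.91) for Fn1 and Timp1, an inhibitor of matrix metalloproteinases (0.929), and Plcb1 (0.902) for Vcan. F13a1 was nearest to Ccl9 (0.937), F10 (0.927) and Ms4a4a (0.926), and Thbs1 to Sod2 (0.952), Gab1 (0.95) and Msantd3 (0.945). Spp1 was nearest to Fpr2 (0.918), Gm5150 (0.913) and Ptpre (0.903). Ereg was nearest to Col16a1, a collagen chain (0.956), the chemokine Cxcl5 (0.956) and Meg3 (0.951), and Igf1 to Gm17268 (0.938), Col14a1 (0.916) and C4b (0.915). Hbegf was nearest to B3gnt3 (0.922), Sh3bgrl2 (0.919) and Plxna2 (0.917). The nearest genes of Areg were Tent5a (0.861), Ramp1 (0.836) and Abhd17c (0.762), and those of Pdgfb were Tmem173 (0.759), Pea15a (0.751) and Vps37c (0.751). Thus these 2 genes had no close match among the genes searched. Within the list, Spp1 with F13a1 (0.85) and Thbs1 (0.84), and Thbs1 with F13a1 (0.833), came after the Fn1 and Vcan pair.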

How the data were processed

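Single-cell UMI counts of 4 samples were used. The deposited matrices hold whole-number counts per gene and cell made by the authors with Cell Ranger (5.0.0 in the submitters' processing notes, 7.0.1 in the matrix header) on mm10. Whether intronic reads were counted is not given in the sources used here. Cells with at least 200 genes and under 20% mitochondrial UMIs were kept, and the highest Scrublet scores were removed as doublets (0.8% per 1000 cells). A cell took the class with the largest share of its marker list detected (at least 3 genes). Mixed cells had at least 3 markers of another lineage, more than 50% as many. Monocyte and macrophage lists split 1 lineage, and intermediate cells had markers of both. Classes with at least 20 cells in a sample were read. UMIs were summed per sample and class and tested with edgeR 4.0.16 (R 4.3.3; TMM, filterByExpr, quasi-likelihood F test, sample as a block since both classes came from 1 library, Benjamini-Hochberg over all genes tested, called at an adjusted p under 0.05). SE is the log2 difference divided by the square root of F. Poisson and binomial intervals are exact at 95% and cover counting error only. DESeq2 1.42.0, Leiden clusters (scanpy 1.11.5) and other filters were alternatives, and 2 (no TMM factors, no top cell) were chosen after seeing the data. Depth was 72509408 to 135516016 UMIs per sample. In simulated counts with the same library sizes, the test recovered 69% of 2-fold and 100% of 4-fold changes for macrophages against monocytes, and 52% and 91% for Arg1-positive against Mrc1-positive cells. The members and lists were chosen with earlier results of these data known. Named pathway genes are the 2 largest and 2 smallest log2 differences that passed in each comparison. The 3 nearest genes have the highest r of those reaching 50 CPM in any class, with gate and check markers and some other names left out. Gene positions are from GENCODE M21, which held 32158 of 32285 features.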

Additional observations from a re-analysis of the deposited data

Results flagged for a closer look

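Of 50 groups of 4 sample levels looked at, 3 held a sample far from the other samples (gap over range above Dixon's 95% critical value for 4 samples, which chance alone exceeds in about 1 of 20 groups). Ereg in fibroblasts was 4285 CPM in sample 3 and 2144 to 2365 CPM in the others, and sample 3 also held the most fibroblasts (368). The larger fibroblast cluster, the higher in Ereg, held 341 of these 368 cells. In samples 1, 2 and 4 it held 51 of 72, 54 of 90 and 109 of 174. Inside that cluster Ereg was 2721, 3812, 4646 and 3470 CPM in samples 1 to 4. Ereg in Mrc1-positive macrophages was 10.43 CPM in sample 3 and 1.94 to 3.05 CPM in the others, beside a B cell reading of 8.50 CPM in sample 3. Spp1 in Arg1-positive macrophages was 1471 CPM in sample 4 and 95.7 to 175 CPM in the others, and 1 cell of sample 4 held 82.2% of those UMIs. The cause of each was not tested.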

How the results depend on the processing

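Leaving out each sample in turn gave 8 to 9 members called for macrophages against monocytes, 7 to 8 for neutrophils against monocytes, 3 to 4 for Arg1-positive against Mrc1-positive cells, 8 to 8 for fibroblasts against macrophages, 2 to 5 for Foxp3-positive against Foxp3-negative cells and 0 to 0 for ILC2 against ILC3. Samples were paired as a block because both classes came from the same library. Without the replicate block, 6 members were called for macrophages against monocytes, 0 for Arg1-positive against Mrc1-positive cells and 0 for Foxp3-positive against Foxp3-negative cells, and genes called in all fell to 2525 from 4632, to 32 from 320 and to 758 from 1993. The count for Foxp3-positive cells was 5 with no filter on low counts, 5 with Leiden clusters and 1 with doublets left in. The count for ILC2 against ILC3 was 3 with no filter (Areg, Fn1 and Pdgfb) and 1 without the top cell of a gene, where that for Arg1-positive cells was 3. Runs with no filter shared 1 spread over all genes (47830 to 66000 degrees of freedom). Counts with no filter therefore do not rest on each gene's own spread. Genes called in all rose to 588 for Arg1-positive cells with no filter and fell to 198 and 212 without samples 3 and 4. For Foxp3-positive cells they fell to 1094 by DESeq2 and to 1221 and 1091 without samples 3 and 4, and for ILC2, from 909, to 586 by DESeq2 and to 596 and 603 without samples 1 and 4. Without TMM factors, genes called higher and lower were 2062 and 5838 for neutrophils (3775 and 3927 with them) and 3315 and 1527 for macrophages (2284 and 2348) against monocytes.

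Spp1 in neutrophils against monocytes, called at 1.35, reversed to -0.013 with Leiden clusters, where clusters of neutrophil majority also held mixed cells. The other reversals were of differences that had not passed. Thbs1 in Arg1-positive cells was -0.039 with no filter, -0.079 without the top cell and -0.038 to 0.16 when 1 sample was left out. Areg in fibroblasts was -0.024 without the block, -0.28 at 4 or more markers, -0.14 with Leiden clusters, -0.60 without the top cell and -0.19 to 0.33 when 1 sample was left out. Hbegf in fibroblasts was -0.040 with no filter, -0.032 without the block, -0.064 at 4 or more markers, -0.21 without the top cell and -0.14 to 0.17 when 1 sample was left out. Thbs1 in ILC2 was -0.36 at 4 or more markers and -0.43 to 0.95 when 1 sample was left out. These causes were not tested. Of the log2 differences of single members under an alternative, 627 kept their direction and side of the threshold, 40 lost their call, 15 gained one and 18 changed sign. Leiden clusters for ILC2 against ILC3, and a minimum of 50 cells for Arg1-positive cells and for ILC2, were not run for want of samples. Depth limits Igf1 and Pdgfb most, with 2622 and 2137 UMIs in kept cells.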
